A study of Rattus norvegicus with 59 samples.

Results

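The genes described here encode enzymes and complexes that modify histones or DNA, read those marks or move nucleosomes in INS-1E cells, a clonal insulin-secreting line from a rat insulinoma. They are all table entries whose symbol begins with Hdac, Sirt1 to Sirt7, Kdm, Kmt, Setd, Ezh, Dnmt or Smarc, or with Brd or Chd and a digit, or is Tet1 to Tet3, and they came to 64 of 17029 symbols. The rule uses symbols and no expression value. No entry was named Kmt or Tet. Other known genes of these families also had no entry, such as Hdac6, Hdac7, Sirt1, Chd3 and Chd4. Rankings and shares within a family therefore cover only the entries present. Brd2 had a repeated entry with identical values and was counted once, and Dnmt3a had a pair of transcripts, which left 65 entries. Of these, 60 reached a mean of at least 1 FPKM (fragments scaled by transcript length and library total) over all libraries and were tested. The other 5 entries, Dnmt3b, Dnmt3l, Hdac9, Kdm4d and a minor Dnmt3a transcript, were under 1 FPKM in NG and were not tested.

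Polyadenylated RNA was measured in 59 libraries. All cells were cultured for 72 h, at a glucose concentration of 11.1 mM in normal glucose (NG, n = 20) and of 20 mM in high glucose (HG, n = 20) and in HG + drugs (n = 19). The drugs were present over the last 48 h and were the GLP-1 receptor agonist exendin-4 at 50 nM, the biguanide metformin at 250 μM and the anti-inflammatory salt sodium salicylate, also at 250 μM. The drugs were only given together, so their separate effects cannot be told apart, and number 16 lacks an HG + drugs library in this analysed set. All libraries are of 1 tumour line, with replicates that are called independent experiments in the methods.

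The depth read from low values was 6.94 to 10.3 M reads per library (median 8.60), and the members tested had a median of 620 reads and at least 26.2 reads at the median depth. Of the β-cell markers, Ins1 averaged 69154 FPKM in NG, and 9 of 11 marker transcripts fell with HG, compared with 22% of all transcripts tested. Summed markers of exocrine and duct cells stayed at or under 0.246 FPKM in every library and those of endothelial and blood cells at or under 2.12, whereas Gcg, the glucagon gene of α-cells, was present at 947 FPKM in NG. Summed fibroblast markers had 83.2 to 131.5 FPKM, of which Thy1 gave 109 in NG, and Dcn and Lum were at 0 there. A library stood apart in the HG group, since Ins2 stood at 7843 FPKM in HG replicate 13 while the other 19 libraries of that group had 2743 to 7051 FPKM, so members whose call differs without number 13 are named beside the results. In a bulk culture, fewer cells of a kind and less RNA per cell cannot be told apart.

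Histone acetylation loosens chromatin and is removed by histone deacetylases (HDACs) and by NAD-dependent sirtuins. Lysine methylation is placed by SET-domain enzymes such as EZH2 and SETD8 and removed by lysine demethylases (KDMs), most of which need oxygen and iron, while DNA methyltransferases (DNMTs) place and copy CpG methylation. Bromodomain proteins bind acetylated lysines, and the SMARC and CHD proteins use or assist ATP hydrolysis to slide or evict nucleosomes. In β-cells these systems are known to help keep insulin and other identity genes active and to hold genes of other cell types silent.

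Promoters of 4 members are shown because they carry the letters of the binding motif of E2F, a factor family known for driving genes of DNA replication, and because 3 of these genes rose with HG (Dnmt1, Ezh2 and Brd7) and 1 fell (Brd2). The sequences are RefSeq windows of build GRCr8 from 250 bases before to 50 after 1 annotated start of each gene, 5′ to 3′ on the gene's strand, at chr8:27762792-27763091 (- strand), chr4:77687134-77687433 (- strand), chr19:34882054-34882353 (+ strand) and chr20:4729829-4730128 (+ strand). The gene spans begin upstream of these starts, at bases 27763405, 77698598, 34882238 and 4728282 in the same order. Base positions therefore refer to the start used in the window and not to the gene's 5′ end. Capitals mark the match to TTTGGCGC or TTTCGCGC on either strand, which begins at base 26, 10 and 14 after the start in Dnmt1, Ezh2 and Brd7 and at base -17 in Brd2.
Dnmt1: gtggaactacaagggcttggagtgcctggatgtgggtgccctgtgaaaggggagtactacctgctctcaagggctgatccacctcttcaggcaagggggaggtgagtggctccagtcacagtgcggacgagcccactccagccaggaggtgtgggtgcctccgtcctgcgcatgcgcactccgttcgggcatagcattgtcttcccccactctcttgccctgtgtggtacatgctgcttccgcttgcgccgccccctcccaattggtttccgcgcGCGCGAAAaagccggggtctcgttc
Ezh2: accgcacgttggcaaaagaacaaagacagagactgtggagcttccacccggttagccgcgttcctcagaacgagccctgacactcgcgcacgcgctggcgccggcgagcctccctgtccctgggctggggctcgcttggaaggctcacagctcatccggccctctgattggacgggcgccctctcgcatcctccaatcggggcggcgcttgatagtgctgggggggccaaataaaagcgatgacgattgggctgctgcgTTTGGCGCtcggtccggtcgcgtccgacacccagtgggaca
Brd7: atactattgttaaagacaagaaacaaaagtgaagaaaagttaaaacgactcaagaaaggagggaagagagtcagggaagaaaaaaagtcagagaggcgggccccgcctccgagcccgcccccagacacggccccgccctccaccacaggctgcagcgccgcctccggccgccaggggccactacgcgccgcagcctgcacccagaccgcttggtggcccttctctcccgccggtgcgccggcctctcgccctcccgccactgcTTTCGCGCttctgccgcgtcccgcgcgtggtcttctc
Brd2: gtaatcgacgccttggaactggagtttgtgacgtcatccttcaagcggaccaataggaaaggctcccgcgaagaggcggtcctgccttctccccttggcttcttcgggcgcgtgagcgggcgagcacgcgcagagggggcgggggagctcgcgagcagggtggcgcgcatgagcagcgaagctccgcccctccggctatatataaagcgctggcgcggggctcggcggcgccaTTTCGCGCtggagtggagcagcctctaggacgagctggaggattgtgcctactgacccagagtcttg

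All 64 symbols matched the RefSeq table, 57 by accession and 7 by symbol, and 55 had a window. The E2F letters were in 6 of the 55 (10.9%), compared with 1.09% of 19005 protein-coding promoters, and the remaining carriers were Kdm1a and Smarce1, neither of which passed the test with HG. A total of 8 letter strings were searched on both strands, and they were chosen with the members' values known. GGGCGG, the GC box, was in 41 of the 55 member windows (74.5%) and in 43.1% of protein-coding promoters, and the median GC content was 63% and 55.3%, respectively. The other strings were closer to the background, with ACGTG in 25.5% against 20.4%, CACGTG, which contains ACGTG, in 9.09% against 7.27%, TGACGT in 10.9% against 8.99%, and TGACGTCA, which contains TGACGT, in 1.82% against 2.22%. The carbohydrate response element, as a pair of CACGTG separated by 5 bases, was in 0 member windows and 0% of protein-coding promoters. These shares are descriptions of letters, without a test, and none of them shows binding.

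The level of the members set the background for the comparisons. In NG, 47 entries were above 10 FPKM, 13 lay between 1 and 10 and 5 were lower, and the median over the 60 members tested was 21.2 FPKM across all libraries compared with 14.4 for all transcripts tested. FPKM are scaled by length, so levels can be set side by side between genes. Hdac1 (118 ± 10.6 FPKM, mean ± SD, n = 20) and Hdac2 (97.6 ± 6.18) are the catalytic subunits of the SIN3, NuRD and CoREST complexes. Together they made up 65.0% of the summed FPKM of the Hdac entries present in NG. Close to them were Smarce1 (94.1 ± 6.24), a DNA-binding SWI/SNF subunit, and Setd8 (93.1 ± 7.46), the histone H4 lysine 20 monomethyltransferase that RefSeq now names Kmt5a.

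Each other family was led by a transcript of lower level. The leading sirtuin was the mitochondrial desuccinylase gene Sirt5 (34.0 ± 3.57 FPKM in NG), the leading demethylase Kdm4a (42.3 ± 6.66), the leading bromodomain gene Brd2 (45.0 ± 2.49) and the leading SMARCA ATPase Smarca4 (42.7 ± 1.89), followed by its alternative Smarca2 (40.1 ± 5.06). The maintenance methyltransferase Dnmt1 (34.1 ± 1.30) and the main transcript of the de novo enzyme Dnmt3a (27.0 ± 2.19) were both present, whereas Dnmt3b stood at 0.704 ± 0.181. Ezh2 (22.2 ± 1.65) exceeded Ezh1 (12.7 ± 2.06). Among the entries present, Hdac5 (31.4 ± 3.22) led class IIa and Hdac11 (24.6 ± 3.08) led classes IIb and IV. Chd6 (12.9 ± 1.43) led the 5 CHD remodellers with an entry.

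**Figure D1:**
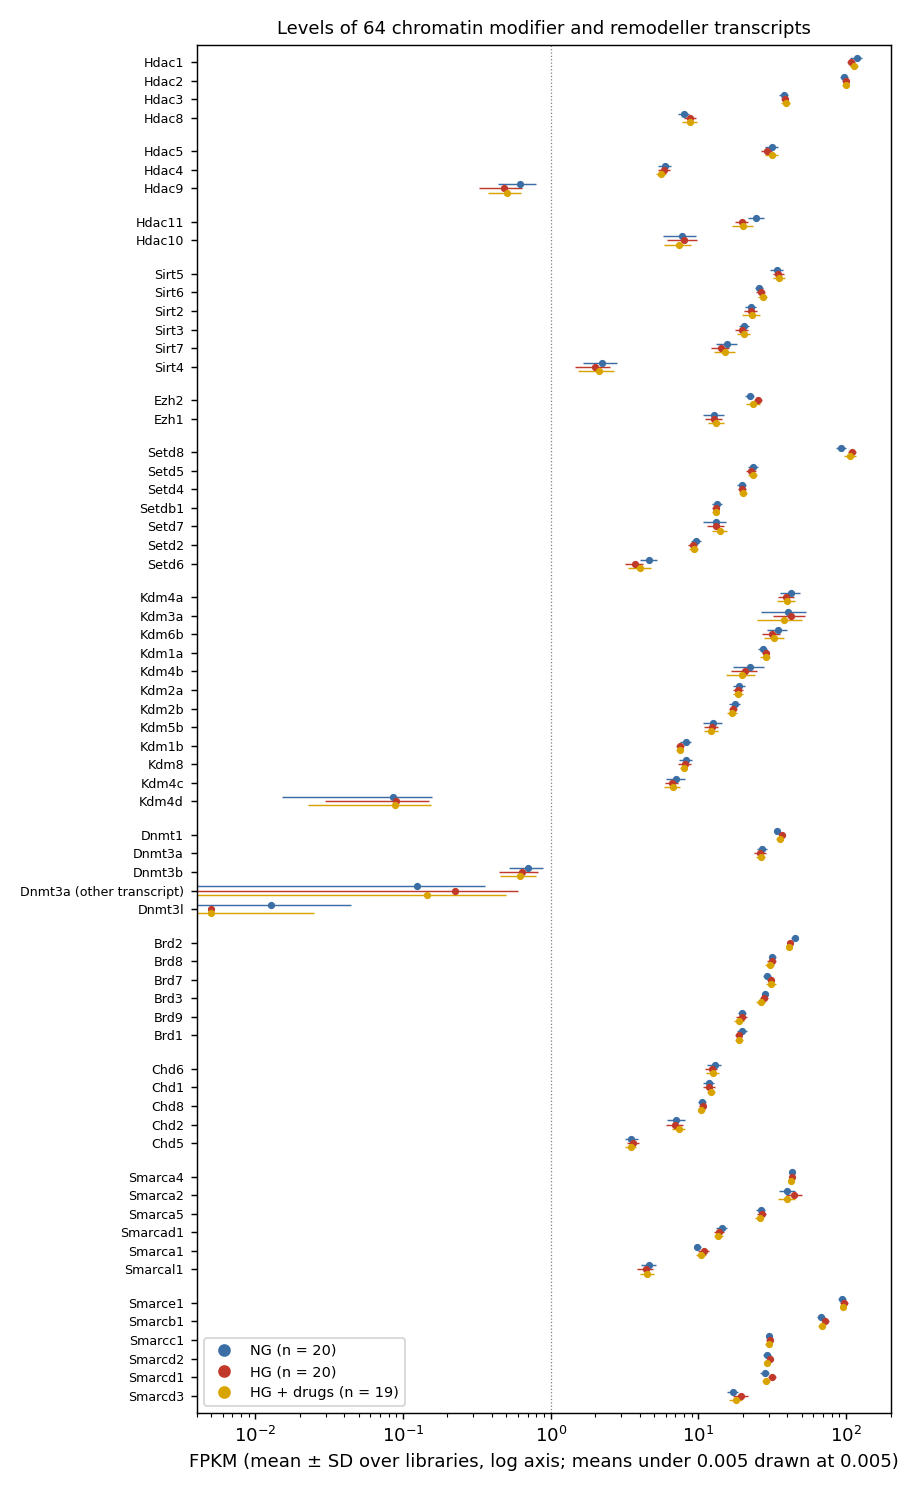
Mean FPKM with SD (log axis) of 64 member transcripts by family in NG (n = 20), HG (n = 20) and HG + drugs (n = 19), with a dotted line at 1 FPKM and means under 0.005 FPKM drawn at 0.005. Hdac1, Hdac2, Smarce1 and Setd8 lie near 100 FPKM, 5 transcripts lie left of the line in NG, and the groups differ little beside the range between genes.

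With HG, members moved by small amounts in both directions. Setd8 and Ezh2, which methylate histones, Dnmt1, the deacetylase Hdac8, the bromodomain gene Brd7 and 6 SMARC remodelling genes rose, while the deacetylases Hdac11, Hdac1 and Hdac5, the methyltransferase gene Setd6, the demethylase gene Kdm1b and the bromodomain gene Brd2 fell. In all, 11 of the 60 members rose and 6 fell in limma at an adjusted p under 0.05, and 43 did not pass. Over all 10660 transcripts tested 40.1% passed, 18.2% rising and 22% falling, so the share of members that passed (28.3%) was below the background. The median log2 fold change of the members was -0.0012 compared with -0.017 over all transcripts tested. Fold changes of the members that passed lay between 0.065 and 0.31 in size on the log2(FPKM + 1) scale. Every one of the 17 had the same sign in each of the 4 sets of 15 consecutive sample numbers. The 17 were called on these same libraries, so the shared sign is a description and no separate support. In every member tested the 2 groups overlapped, and the share over all transcripts was not computed, so nothing particular to the members is read from it.

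The clearest rise was that of Setd8, whose product acts in S phase and mitosis. Setd8 had 80.7, 91.0 and 105.9 FPKM as the lowest, median and highest value in NG, 95.8, 110.1 and 123.4 in HG, and 88.0, 106.8 and 120.6 in HG + drugs. The log2 fold change with HG was 0.24 (SE 0.035, limma adjusted p = 6.45e-08), and all 20 HG libraries were above the NG median although 5 of 20 NG libraries lay inside the HG range. Its annotated transcript is only 969 bases long, so its FPKM depends on this short model.

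Ezh2, the catalytic subunit of Polycomb repressive complex 2, rose while Ezh1 did not pass the test. It ranged from 19.5 to 26.1 FPKM in NG (median 21.9), from 22.5 to 28.9 in HG (median 25.5) and from 19.7 to 28.5 in HG + drugs (median 22.9). Its log2 fold change was 0.18 with HG (SE 0.036, limma adjusted p = 3.71e-05), with all 20 HG libraries above the NG median and 8 of 20 NG libraries inside the HG range, and -0.11 with drugs (SE 0.037, adjusted p = 0.054). For Ezh1 the change with HG was 0.0043 (SE 0.059, limma adjusted p = 0.963), and the difference between the EZH genes was not tested.

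Dnmt1, which copies methylation onto new DNA strands, spanned 31.9 to 36.8 FPKM in NG (median 34.1), 32.5 to 39.5 in HG (median 37.0) and 29.9 to 39.1 in HG + drugs (median 35.9). It rose by 0.10 with HG (log2, SE 0.023, limma adjusted p = 0.000202), and 19 of 20 HG libraries were above the NG median. Within the sets of 15 its fold change ran from 0.030 to 0.15. For Dnmt3a the change was -0.048 (SE 0.036, limma adjusted p = 0.307).

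Among the remodellers, 4 of the 6 SWI/SNF subunits outside the SMARCA group rose with HG (Smarcb1, Smarcd1, Smarcd2 and Smarcd3), compared with 18.2% of all transcripts. Smarcc1 (0.021, limma adjusted p = 0.490) and Smarce1 (0.044, adjusted p = 0.178) did not pass, and no test was made of the group. Smarcd1, a subunit that links the complex to transcription factors, went from 25.0 to 32.8 FPKM in NG (median 27.9) to 26.6 to 34.7 in HG (median 32.1) and 25.6 to 31.9 in HG + drugs (median 28.3). Its log2 fold change with HG was 0.16 (SE 0.030, limma adjusted p = 1.39e-05), with 19 of 20 HG libraries above the NG median.

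Smarcd3, an alternative to Smarcd1 in the same position of the complex, had 14.6 to 19.2 FPKM in NG (median 17.6), 14.4 to 24.0 in HG (median 19.4) and 15.3 to 21.9 in HG + drugs (median 17.8). It rose by 0.16 (log2, SE 0.044, limma adjusted p = 0.00221), and its HG range enclosed that of NG. Smarcb1, a core subunit, rose by 0.098 (SE 0.026, limma adjusted p = 0.00165) and Smarcd2 by 0.065 (SE 0.022, adjusted p = 0.0128). Smarcc1 (0.021) and Smarce1 (0.044) did not pass the test, although Smarce1 passed with the replicate number as a term in the fit.

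Of the 6 SMARCA ATPase genes, 2 rose. Smarca2 had 30.0 to 48.5 FPKM in NG (median 41.1), 34.0 to 50.9 in HG (median 46.9) and 30.3 to 45.7 in HG + drugs (median 39.6), and rose by 0.15 with HG (log2, SE 0.057, limma adjusted p = 0.0286). It was above the NG median in only 14 of 20 HG libraries, and the call was lost with quantile normalization (adjusted p = 0.0507). Between libraries of the same number, HG was higher than NG in 19 of 20 and lower in 1, although no label says that a number marks a shared experiment. Smarca1, an ISWI ATPase, had 9.07 to 10.8 FPKM in NG (median 9.98), 8.76 to 12.2 in HG (median 10.9) and 9.01 to 11.9 in HG + drugs (median 10.3), and rose by 0.13 (SE 0.033, limma adjusted p = 0.000657). Smarca4 differed by 0.012 (SE 0.020), so the ATPase of the highest level did not pass.

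Hdac11, the only class IV deacetylase, had the largest fall of the members. It spanned 17.0 to 32.2 FPKM in NG (median 24.5), 15.1 to 22.7 in HG (median 19.7) and 15.3 to 28.4 in HG + drugs (median 19.5). The log2 fold change with HG was -0.31 (SE 0.056, limma adjusted p = 7.66e-06), a mean 20.3% lower, and all 20 HG libraries were below the NG median. The groups overlapped, with 4 of 20 NG libraries inside the HG range.

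The class I and IIa genes that fell had smaller fold changes. Hdac1 had 101.2 to 139 FPKM in NG (median 115.1), 99.8 to 124 in HG (median 107.7) and 98.1 to 127 in HG + drugs (median 113.4), and fell by 0.11 on the log2 scale (SE 0.033, limma adjusted p = 0.00496). Hdac5, a class IIa enzyme that shuttles out of the nucleus when phosphorylated, had 25.6 to 38.6 FPKM in NG (median 31.4), 24.6 to 33.8 in HG (median 29.1) and 25.8 to 37.8 in HG + drugs (median 31.4), and fell by 0.10 (SE 0.042, limma adjusted p = 0.0422). The Hdac5 call was lost with the length trend removed, with median-ratio scaling and with no filter (adjusted p = 0.0831, 0.0633 and 0.0565). Hdac8, the X-linked class I enzyme, rose by 0.13 (SE 0.041, limma adjusted p = 0.00898), while Hdac2, Hdac3, Hdac4 and Hdac10 did not pass.

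Of the 11 demethylases, 1 passed the threshold (9.09%), compared with 40.1% of all transcripts. With the replicate number as a term in the fit, Kdm1a, Kdm4a, Kdm4c and Kdm6b passed as well. Kdm1b, which removes H3 lysine 4 methylation in a flavin-dependent reaction, had 7.01 to 9.38 FPKM in NG (median 8.15), 6.38 to 8.46 in HG (median 7.51) and 6.64 to 8.13 in HG + drugs (median 7.45). Its log2 fold change with HG was -0.12 (SE 0.030, limma adjusted p = 0.00112), and 18 of 20 HG libraries were below the NG median. The paralog Kdm1a, at 27.3 FPKM in NG, had 0.065 (adjusted p = 0.0787).

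Setd6, a methyltransferase gene known in human cells for methylating the NF-κB subunit RELA, was the other member that fell by more than Kdm1b. It had 3.81 to 5.85 FPKM in NG (median 4.61), 2.51 to 4.48 in HG (median 3.81) and 2.69 to 5.32 in HG + drugs (median 4.05). The log2 fold change was -0.26 (SE 0.056, limma adjusted p = 0.000101), and all 20 HG libraries were below the NG median, with 8 of 20 NG libraries inside the HG range. Setd2, Setd4, Setd5, Setd7 and Setdb1 did not pass. Setd2, which places trimethylation on H3 lysine 36, had -0.074 (SE 0.032, limma adjusted p = 0.0577), and without the 20 mM glucose libraries of number 13 it had -0.081 and fell (adjusted p = 0.0368).

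Of the 7 bromodomain genes, Brd7 rose and Brd2 fell with HG. Brd2, a BET protein that binds acetylated histones, had 41.6 to 49.9 FPKM in NG (median 44.4), 39.6 to 45.7 in HG (median 41.6) and 37.3 to 43.5 in HG + drugs (median 41.0). Its log2 fold change with HG was -0.096 (SE 0.022, limma adjusted p = 0.000371), with 18 of 20 HG libraries below the NG median.

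The sirtuins and the CHD remodellers had 0 of 6 and 0 of 5 members past the threshold in limma, and 0 and 0 at an unadjusted p under 0.05. Over all 10660 transcripts 40.1% passed, and 2247 rose and 2818 fell at an unadjusted p under 0.05. Sirt7, a nucleolar deacetylase, came closest with 10.2 to 19.7 FPKM in NG (median 15.3), 10.9 to 17.8 in HG (median 14.4) and 11.2 to 21.4 in HG + drugs (median 14.4), and changed by -0.13 (log2, SE 0.064, limma adjusted p = 0.108). Chd6 had 9.60 to 15.4 FPKM in NG (median 13.1), 9.35 to 13.8 in HG (median 12.7) and 10.4 to 14.6 in HG + drugs (median 12.9), with -0.059 (SE 0.044, limma adjusted p = 0.299). Sirt7 and Chd6 both passed when the replicate number was a term in the fit. A p above the threshold does not show that these genes held their level.

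**Figure D2:**
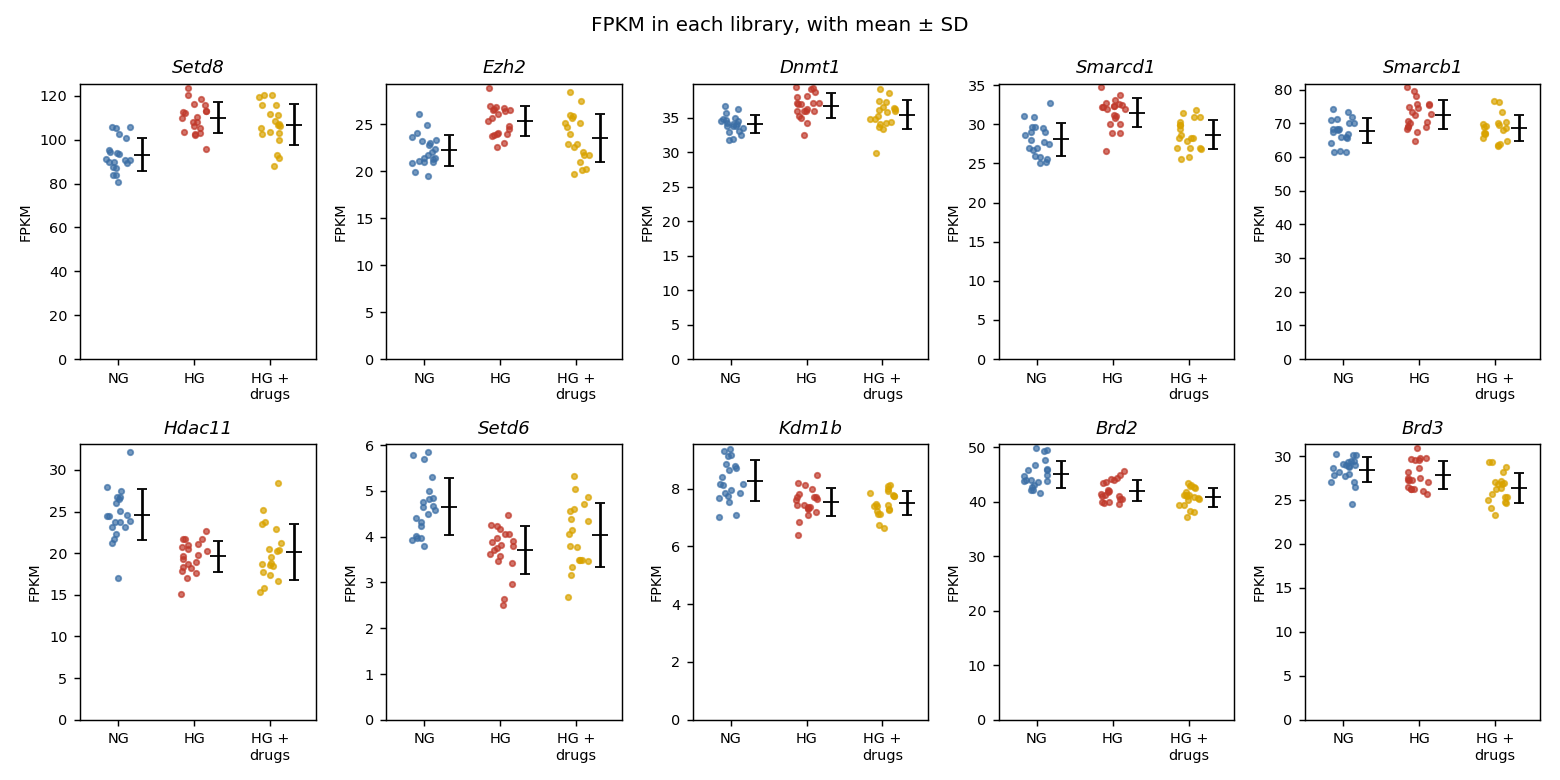
FPKM in every library of NG (n = 20), HG (n = 20) and HG + drugs (n = 19) for 10 members, each with its own linear axis from 0, with mean ± SD in black. Setd8, Ezh2, Dnmt1, Smarcd1 and Smarcb1 sit higher in HG than in NG, Hdac11, Setd6, Kdm1b and Brd2 sit lower, and the groups overlap in every panel.

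With drugs, 2 of the 60 members fell relative to HG and none rose, and both were SWI/SNF subunits. Over all transcripts 8.66% passed in limma, 4.17% rising and 4.48% falling, compared with 3.33% of the members. At an unadjusted p under 0.05, 1 of the 60 members had risen and 8 had fallen, and of all 10660 transcripts 1206 had risen and 1138 had fallen. The median log2 fold change of the members was -0.0051 compared with 0.0035 over all transcripts.

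Smarcd1 fell by 0.13 on the log2 scale (SE 0.031, limma adjusted p = 0.00277), and all 19 libraries with drugs were below the HG median. Smarcb1 had 61.6 to 74.2 FPKM in NG (median 68.1), 64.8 to 80.8 in HG (median 72.6) and 63.3 to 76.6 in HG + drugs (median 68.6), and fell by 0.080 with drugs (SE 0.026, limma adjusted p = 0.0404), with 16 of 19 libraries below the HG median. The Smarcb1 call was lost with no filter, with only complete numbers and with quantile normalization (adjusted p = 0.0502, 0.0652 and 0.0933), and within the third set of 15 its fold change was 0.0062. All 6 subunits outside the SMARCA group had a negative fold change with drugs, as did 5064 of the 10660 transcripts tested. The same 6 all had a positive one with HG. Both comparisons use the same HG libraries, so nothing is read from these signs. With both 20 mM glucose libraries of number 13 left out, 6 members fell, the others being Ezh2, Smarca2, Smarcd3 and Brd3.

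Of the 11 members raised by HG, 10 had a negative fold change with drugs, but both comparisons use the same HG libraries, so the signs are not independent and nothing is read from them. Relative to NG, HG + drugs had 3 members higher (Setd8, Hdac8 and Brd7) and 5 lower (Hdac11, Brd2, Setd6, Kdm1b and Brd3), while 27.3% of all transcripts passed, 12.7% rising and 14.6% falling. Setd8 was 0.20 above NG with drugs present (SE 0.035, limma adjusted p = 1.49e-05) and Hdac11 was -0.28 (SE 0.057, adjusted p = 8.84e-05). Brd2 was -0.14 (SE 0.023, limma adjusted p = 2.44e-06), with all 19 libraries below the NG median, Setd6 -0.17 (adjusted p = 0.0177) and Kdm1b -0.12 (adjusted p = 0.00132). With quantile normalization the split was 5 higher and 5 lower.

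The remaining members of this comparison were of smaller size. Hdac8 had 6.89 to 9.14 FPKM in NG (median 7.86), 7.21 to 10.9 in HG (median 8.73) and 6.62 to 10.7 in HG + drugs (median 8.94), and was 0.12 above NG with drugs (SE 0.041, limma adjusted p = 0.0274). Brd7, a subunit of the PBAF form of SWI/SNF, had 25.3 to 32.3 FPKM in NG (median 29.8), 28.5 to 34.4 in HG (median 30.9) and 28.1 to 37.5 in HG + drugs (median 30.5), and was 0.078 above NG (SE 0.028, limma adjusted p = 0.0343), a call lost without number 13 (adjusted p = 0.0587). Brd3, another BET gene, had 24.6 to 30.2 FPKM in NG (median 28.9), 25.7 to 30.9 in HG (median 27.4) and 23.3 to 29.3 in HG + drugs (median 26.3), and was -0.11 relative to NG (SE 0.026, limma adjusted p = 0.00145). Ranges overlapped for each of these genes.

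**Figure D3:**
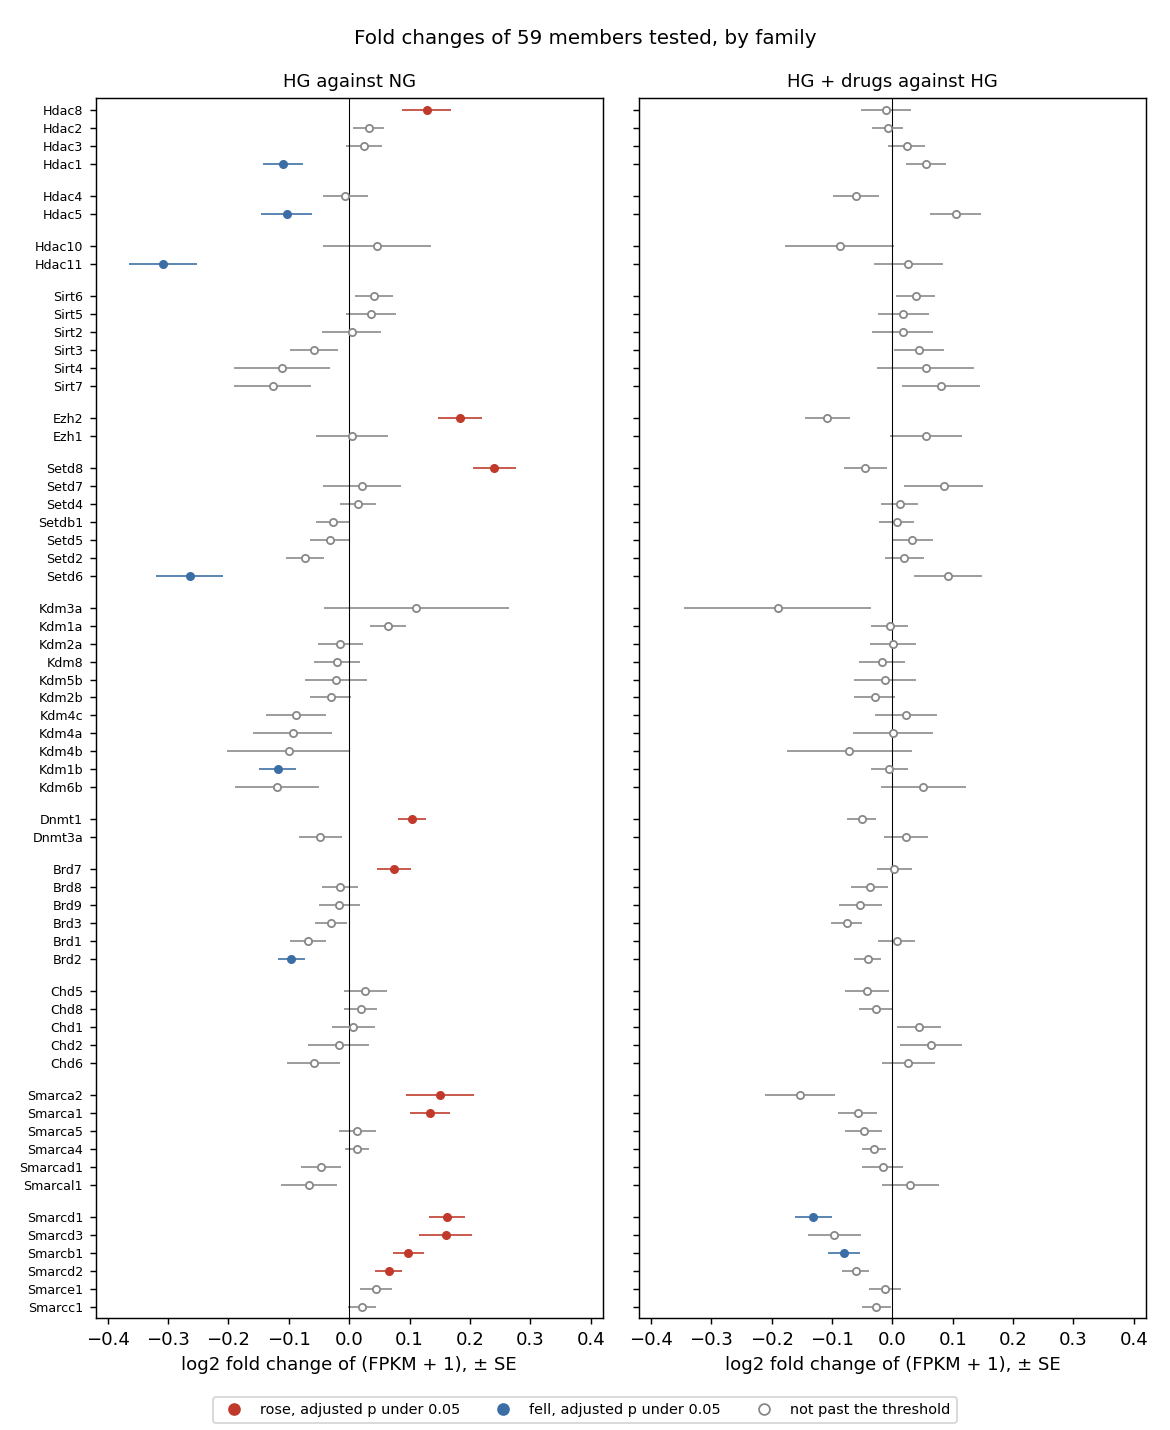
Log2 fold change of (FPKM + 1) with SE for 59 of the members tested, grouped by family, for HG against NG (left) and HG + drugs against HG (right), with filled points past an adjusted p of 0.05. On the left 11 points are filled above 0 and 6 below, and on the right the 2 filled points are Smarcd1 and Smarcb1.

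Partners of these enzymes outside the symbol rule were counted from lists written with earlier results of the data known, and no list was tested. Over all transcripts 40.1% passed with HG, 18.2% rising and 22% falling, and 8.66% passed with drugs. Of 20 deacetylase complex partners 5 rose and 2 fell with HG (35.0%), including Sin3b (log2 fold change 0.14) and Rbbp7 (0.09), and 3 fell with drugs (15.0%), including Rbbp7 (-0.08) and Rcor3 (-0.16). Of 21 Polycomb partners 4 rose and 7 fell with HG (52.4%), with Aebp2, a cofactor of EZH2, going from 25.8 to 42.8 FPKM (0.71) and to 33.8 with drugs, and the chromobox genes Cbx7 (-0.32) and Cbx6 (-0.21) falling. With drugs 2 of these partners fell (9.52%), Cbx8 (-0.21) and Aebp2 (-0.35).

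Of 22 other remodeller subunits 2 rose and 7 fell with HG, and with drugs 0 passed in limma, with 3 up and 2 down at an unadjusted p under 0.05. Phf10 (0.30) and Dpf1 (0.36), subunits of SWI/SNF forms, rose and Cecr2 (-0.42) fell. Of 10 other bromodomain transcripts 2 rose and 1 fell with HG, with Trim24 at 0.43, and 2 fell with drugs, with Trim24 at -0.17. Of 9 DNA methylation partners Gadd45a (0.37) and Tdg (0.09) rose and Gadd45b (-0.38) fell. The acetyltransferases (2 up and 1 down of 9, with Ncoa2 at 0.16 and Kat6a at -0.14), COMPASS partners (1 up and 1 down of 9) and other methyltransferases (4 up and 3 down of 23, with Prmt3 at 0.26) were near or under the background share of 40.1%.

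Of 14 proliferation markers 7 rose with HG, 0 fell and 7 did not pass, compared with 18.2% of all transcripts that rose and 22% that fell. Mcm5, a subunit of the replicative helicase, had 0.20. With drugs Mcm5 alone of the 14 fell (-0.16) and 0 rose, while 8.66% of all transcripts passed. The summed level of the list was 945.5 to 1262 FPKM in NG (median 1048), 1044 to 1302 in HG (median 1113) and 881.6 to 1276 in HG + drugs (median 1085). Across the 59 libraries, the deviation of this list from its group mean correlated with that of Setd8 (r = 0.56), Dnmt1 (0.39), Smarcd1 (0.29), Smarcb1 (0.04) and Ezh2 (-0.04), given as a description. The part of cell division in the rises was not tested.

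Members also varied between libraries of the same group, and Kdm3a varied most. Kdm3a, a hypoxia-inducible H3 lysine 9 demethylase gene, was chosen for description after its values were seen, as the member with the largest within-group SD. It had 17.2 to 60.2 FPKM in NG (median 41.3), 21.3 to 56.4 in HG (median 42.8) and 18.7 to 55.8 in HG + drugs (median 43.3). The log2 fold change with HG was 0.11 (SE 0.15, limma adjusted p = 0.597), so the groups were far closer than the libraries within them.

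Its values went with the replicate number in places. Number 9 had 17.2 FPKM under NG, 21.3 under HG and 18.7 with drugs, and number 10 had 17.8, 24.5 and 21.7. Number 1 had 60.2, 53.3 and 55.8 FPKM in the same order, and number 5 had 58.3, 56.1 and 54.2. Other numbers did not hold together, such as number 4 with 37.8, 34.8 and 19.4 FPKM.

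**Figure D4:**
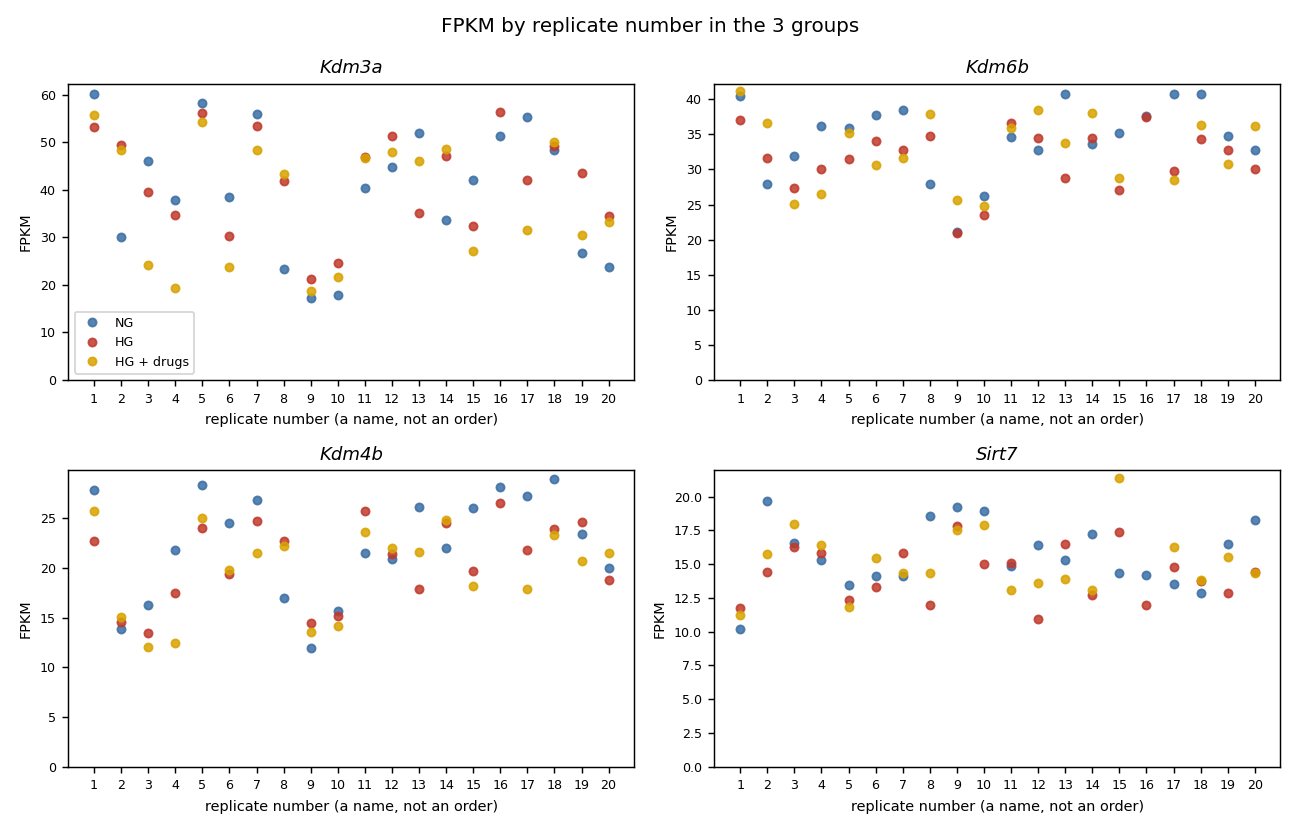
FPKM of Kdm3a, Kdm6b, Kdm4b and Sirt7 by replicate number, which is a name and not an order, in NG, HG and HG + drugs, with number 16 without an HG + drugs library. Kdm3a, Kdm6b and Kdm4b are low at numbers 9 and 10 in all groups, where Sirt7 is not.

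Other members followed Kdm3a or ran against it, which is described here over the 59 other members tested. Across the 59 libraries, 16 members had a correlation of their deviations from the group means above 0.5 with Kdm3a and 10 had one below -0.5, or 44.1% of the members compared with 22.2% of 10659 other transcripts, and no test was made of this. Inside each group 177 relations were computed with 100000 permutations, and 14 members were positive and 5 negative with an adjusted p under 0.05 in all 3 groups. The share of all transcripts that would meet this was not computed, so nothing particular to the members is read from these counts. The points share their library and its depth (r of Kdm3a with depth 0.32).

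Kdm6b, an H3 lysine 27 demethylase gene, was closest. Pearson's r with Kdm3a was 0.85, 0.82 and 0.89 in NG, HG and HG + drugs (permutation adjusted p = 0.000322, 0.000545 and 0.000322), and Spearman's rank coefficient was 0.78, 0.68 and 0.81 (adjusted p = 0.00142, 0.00531 and 0.000885). Without the 2 libraries farthest from the median of Kdm3a, r was 0.73, 0.59 and 0.85, and in the 4 sets of 15 it was 0.86, 0.86, 0.88 and 0.79. The relation therefore did not rest on those libraries or on 1 set.

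Of the other demethylase genes of the JmjC type, 6 also went with it, at r of deviations of 0.76 for Kdm4b, 0.74 for Kdm5b, 0.73 for Kdm2a and Kdm4c, 0.68 for Kdm4a and 0.58 for Kdm2b, whereas Kdm8 had 0.04. Outside the KDM family, Setd7 (0.79), Ezh1 (0.78), Setd5 (0.73), Smarca2 (0.69), Chd6 (0.69), Chd2 (0.69), Hdac11 (0.68) and Sirt5 (0.62) were among the positive members. Sirt7 (-0.76), Smarca5 (-0.73), Smarce1 (-0.66), Chd1 (-0.64), Smarcd1 (-0.63), Smarcad1 (-0.62), Hdac1 (-0.62), Hdac3 (-0.55), Brd2 (-0.54) and Setd8 (-0.51) were negative.

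For Sirt7, Pearson's r was -0.82, -0.62 and -0.79 in the same order (permutation adjusted p = 0.000322, 0.00905 and 0.000632), with Spearman's rank coefficients of -0.85, -0.59 and -0.82 (adjusted p = 0.000393, 0.0187 and 0.000393). Without the 2 farthest libraries r was -0.79, -0.55 and -0.80, and in the 4 sets it was -0.80, -0.76, -0.87 and -0.88. Taking deviations within the sets left 26 members beyond 0.5 in size, and removing a length trend from each library left 23. Kdm3a deviated against the mean of the proliferation markers (r = -0.63).

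The 5 transcripts outside the rule whose deviations were most like those of Kdm3a, taken in order of r over the 59 libraries and known only after the values were seen, were LOC100362347 (0.94), Adm (0.93), Pex26 (0.93), Arhgef3 (0.93) and Trib3 (0.93). Adm encodes the peptide adrenomedullin, Pex26 a peroxisome assembly protein, Arhgef3 a guanine nucleotide exchange factor and Trib3 a pseudokinase. The most opposed was Arf2 (-0.90), a small GTPase gene of membrane traffic.

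**Figure D5:**
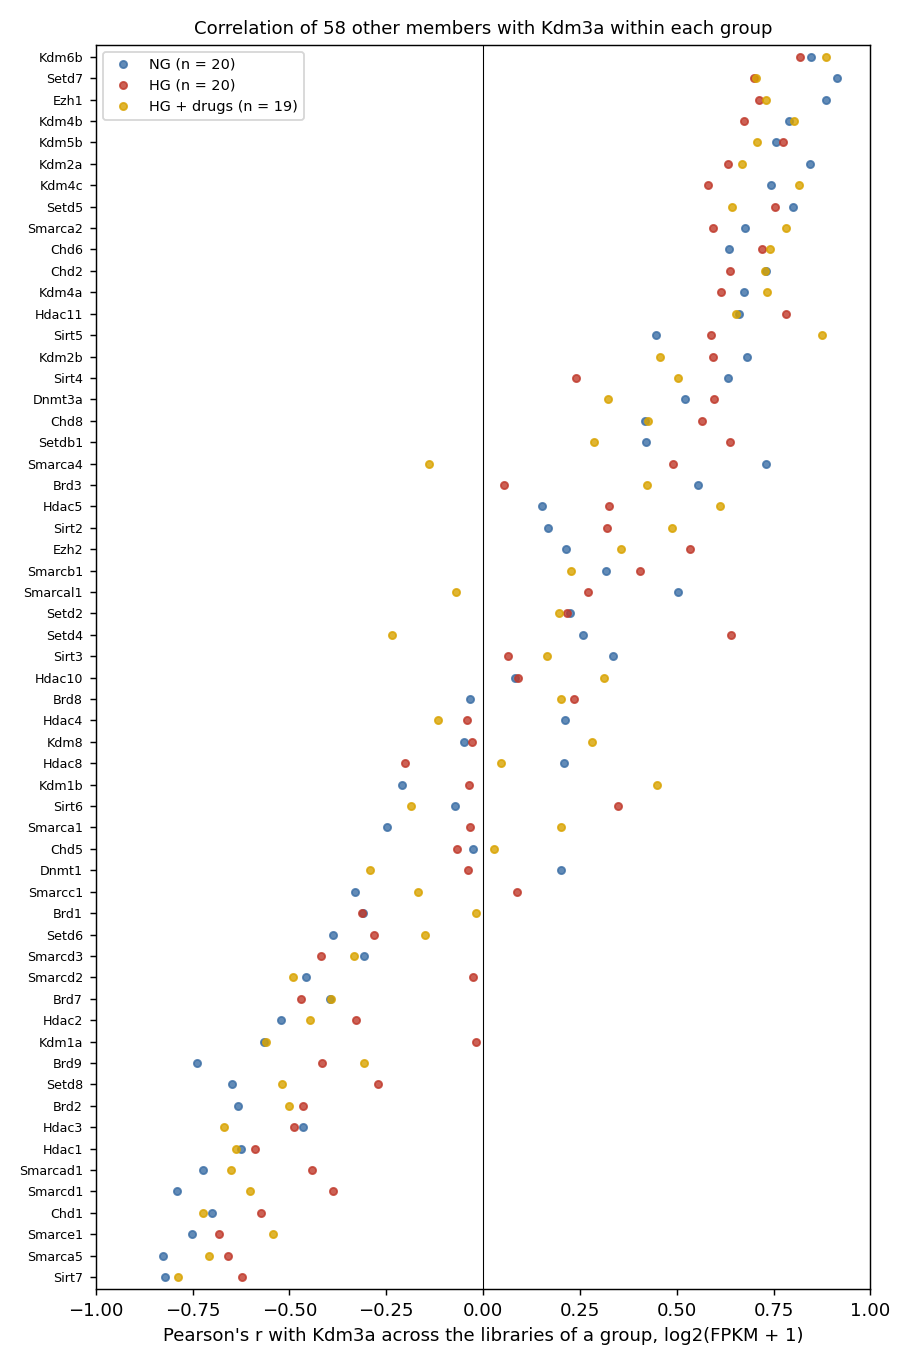
Pearson's r of 58 of the other members with Kdm3a on log2(FPKM + 1) across the libraries of NG (n = 20), HG (n = 20) and HG + drugs (n = 19), ordered by the correlation of deviations over all libraries. Kdm6b lies at 0.82 to 0.89 at the top and Sirt7 at -0.82 to -0.62 at the bottom.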

How the data were processed

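RNA was measured in 59 INS-1E libraries. The authors prepared TruSeq v2 libraries, trimmed the reads, aligned them in TopHat to rat build rn5 and its RefSeq genes and ran Cufflinks to estimate FPKM, and the deposited values are these FPKM for 18331 transcripts. FPKM hold no counts, so no count test was made. The kit does not mark strand, so reads of a gene and an antisense partner cannot be told apart. The depth came from the spacing of low FPKM, of which 87.1% of 72598 were whole reads within 0.1 reads. In the table, 520 entries shared all values with another entry.

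Entries whose mean reached 1 FPKM (10660) were tested as log2(FPKM + 1). A single fit of the 3 groups was made in limma 3.58.1 under R 4.3.3, using its robust and trend settings, and p was adjusted by Benjamini-Hochberg (threshold 0.05). The main fit held no term for the replicate number. A fold change on this scale understates that of low transcripts. P-values measure the spread between these libraries. Correlations were tested with 100000 permutations. Python 3.11.15, pandas 2.3.3, numpy 2.4.6, scipy 1.17.1 and matplotlib 3.10.9 were used, and the fit was tested on simulated data.

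The members and lists were chosen with earlier results of these data known. Named members are the 6 largest rises and 6 largest falls past the threshold in each comparison, the member of smallest adjusted p in each family, and the highest of each family; up to 3 list genes with HG and 2 with drugs are named. The samples were sequenced in 4 batches of 15 by the authors, who do not say which, so sets of 15 consecutive sample numbers stood in for them. Alternatives were 12 per comparison, and, for the correlations with Kdm3a, deviations within sets and removal of a length trend were added after seeing the data. RefSeq sequences were of build GRCr8 and gave no coordinates for the FPKM. The values of 1 member are not reported here, while counts over the members include it.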

Additional observations from a re-analysis of the deposited data

How the results depend on the processing

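Of the 17 members past the threshold with HG, 16 or 17 stayed past it under each of the 12 alternatives. The counts that moved most were those with drugs. Relative to HG, 2 members fell, but 6 with the length trend removed, 1 with no filter, 1 with only complete numbers, 1 with quantile normalization, 4 with the sets of 15 as a term and 6 without number 13. Relative to NG, 3 members rose with drugs, but 6 with the length trend removed and 5 with quantile normalization. Within single sets, Smarcb1 had 0.0062 with drugs against HG in the third set, and Brd7 had -0.019 with drugs against NG in the second. The cause was not tested.

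The replicate block gave 13 members that fell with HG, 1 that rose and 8 that fell with drugs relative to HG, and 10 that rose and 10 that fell relative to NG, and with HG all 17 calls were kept among 26. The members added were Brd1, Chd6, Kdm1a, Kdm4a, Kdm4c, Kdm6b, Setd2, Sirt7 and Smarce1 with HG, and Brd3, Ezh2, Hdac5, Smarca2, Smarca5, Smarcd2 and Smarcd3 with drugs relative to HG. Same-numbered libraries had a mean correlation of deviations of 0.139, compared with 0.029 for different numbers in the same set of 15, and the closest library of another group had the same number for 27 of 59, a hint from the data that numbers mark shared experiments. The labels do not say so, and the correlation was over 0.1 in 38 of 58 pairs. For insulin secretion and apoptosis, the paper draws individual experiments as lines of change from NG. The block was kept as an alternative, so the main fit ignores any such pairing. Its counts of 17, 2 and 8 members compare with 26, 9 and 20 under the block. The smallest change past the threshold was 0.065 on the log2 scale, and FPKM give no counting interval.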
